A study of Mus musculus with 15 samples.

Results

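The 10 genes described here encode the transcription factors that set up and hold the B cell program: Ebf1, Pax5, Tcf3, Foxo1, Ikzf1, Ikzf3, Pou2af1, Lef1, Bach2 and Bcl11a. They were taken from a list of names, with no threshold on their values, and all 10 were found among the 22342 protein-coding genes on chromosomes 1 to 19 and X of the mouse annotation. They carry 15 separate protein-coding starts (Ikzf1 and Bach2 have 3 each, Tcf3 has 2), and their gene bodies with 50 kb on each side span 820 windows of 3 kb out of 831439 mappable windows of the genome.

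The cells were C10, a line derived from mouse HAFTL pre-B cells that carries C/EBPα fused to the estrogen receptor hormone-binding domain and GFP, so that estradiol switches C/EBPα on and the cells turn into macrophage-like cells. All groups shared this transgene, and induced cells were grown with β-estradiol, IL-3 and CSF-1, while the labels give ethanol as the control treatment. H3K27Ac, H3K4Me1 and H3K27Me3 were profiled by ChIP-seq, the sequencing of immunoprecipitated chromatin, at 0, 3, 12, 24 and 48 h post-induction (hpi), which gave 15 libraries. The design asks what happens to the chromatin of B cell regulators while a pre-B cell is converted, in 1 derived line, and an input library was not used here.

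In B cell development, Tcf3 (the E2A proteins) and Foxo1 act upstream of Ebf1, and Ebf1 then turns on Pax5, which commits the cell to the B lineage by activating B cell genes and silencing those of other lineages. The Ikaros family members Ikzf1 and Ikzf3, the coactivator Pou2af1 (OCA-B), the Wnt-pathway factor Lef1 and the repressors Bach2 and Bcl11a belong to the same network. H3K27Ac lies on active promoters and enhancers, H3K4Me1 on enhancers whether active or only primed, and H3K27Me3 on genes silenced by Polycomb.

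Levels are numbers of tags (aligned reads, at most 1 per genome position) in 3 kb, and libraries of a mark were first brought to equal size by random thinning, at 15.22 M tags (H3K27Ac), 10.91 M (H3K4Me1) and 15.34 M (H3K27Me3). The libraries held between 10.91 and 31.54 M positions before thinning. An average 3 kb window of the genome then had 18.3 H3K27Ac, 13.1 H3K4Me1 and 18.4 H3K27Me3 tags, and a window or start was called marked at 34, 27 and 34 tags, the counts whose Poisson upper tail over that average is below 0.001. Because each mark was sequenced once at each time, the spread between replicates is unknown and no test was run. Intervals are 95% limits of counting error only. In bulk chromatin, fewer cells carrying a mark and less of the mark per cell cannot be told apart. "Lower" and "higher" stand for at least a 2-fold difference in tags unless a value is given.

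The H3K27Ac libraries of 0 and 3 hpi stood apart at a stretch of 60 kb in the immunoglobulin heavy chain region (chr12:114670001-114730000, mm9). They had 569 and 463 tags there, against 8 in the other 13 libraries together. For this reason the counts and sums of H3K27Ac that rest on 0 hpi are also given between 12 and 48 hpi, and the part of this difference in the results was not tested. The labelled cell type matched its markers: the starts of 8 of 8 pre-B genes had lower H3K27Ac at 48 hpi (8806 tags summed at 0 hpi and 2717 at 48 hpi), and those of 7 of 7 macrophage genes had higher H3K27Ac (422 and 3068 tags). Summed H3K27Ac was 116 and 74 tags over 6 T cell genes, of which Lck held 83 and 43 and was marked at both times, and Cd3e, Cd4 and Cd8a had 5, 5 and 6 tags at 0 hpi. It was 146 and 113 tags over 4 erythroid genes, of which Klf1 held 103 and 90 and was marked at both times. It was 666 and 1569 tags over 5 granulocyte genes, of which Prtn3 held 628 and 485 and was marked at both times, Elane (16 and 65 tags) and Camp (12 and 1010) were higher and Mpo had 6 tags at both times. Of all main starts tested, 11.2% were higher. At 12 hpi these 3 sums were 104, 140 and 1713 tags, and Elane was lower from 12 to 48 hpi (199 and 65 tags). From 12 to 48 hpi, 3 of the 8 pre-B starts were lower (5137 and 2717 tags summed), against 8.31% of all main starts, and 2 of the 7 macrophage starts were higher (1769 and 3068), against 5.80%.

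At the main start of each gene, the start of the protein-coding transcript with the longest coding sequence, H3K27Ac was strong at 0 hpi and lower at 48 hpi in 9 of the 10 genes. Among all 13327 main starts with at least 10 tags at either time, 16.1% were lower, and among the 10343 marked at 0 hpi, 16.6% were. The median log2 change from 0 to 48 hpi was −1.81 over the 10 genes, against −0.30 over all main starts marked at 0 hpi. All 10 were still marked at 48 hpi. The 2-fold call held for 6 genes under common-bin scaling, in which libraries are matched at bins enriched throughout the time course, against 8.54% of all marked starts. It held for 7 with tags counted in 1 kb around the start, for which a share over all starts is not given here. Common-bin scaling ended the calls of Ebf1 (−0.92), Tcf3 (−0.81) and Pou2af1 (−0.62), and the 1 kb window those of Tcf3 (−0.55) and Pou2af1 (−0.96). Between 12 and 48 hpi, 5 of the 10 were lower, against 7.19% of all marked starts, and the median log2 change was −0.98 against −0.24. Of these 5 (Lef1, Bach2, Pax5, Ebf1 and Ikzf3), Pax5 and Ikzf3 were still 2-fold lower under common-bin scaling, against 3.73% of all marked starts. Under background-bin scaling, in which libraries are matched at bins that held background at all times, it was Lef1, Pax5 and Ikzf3, against 6.06%.

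**Figure D1:**
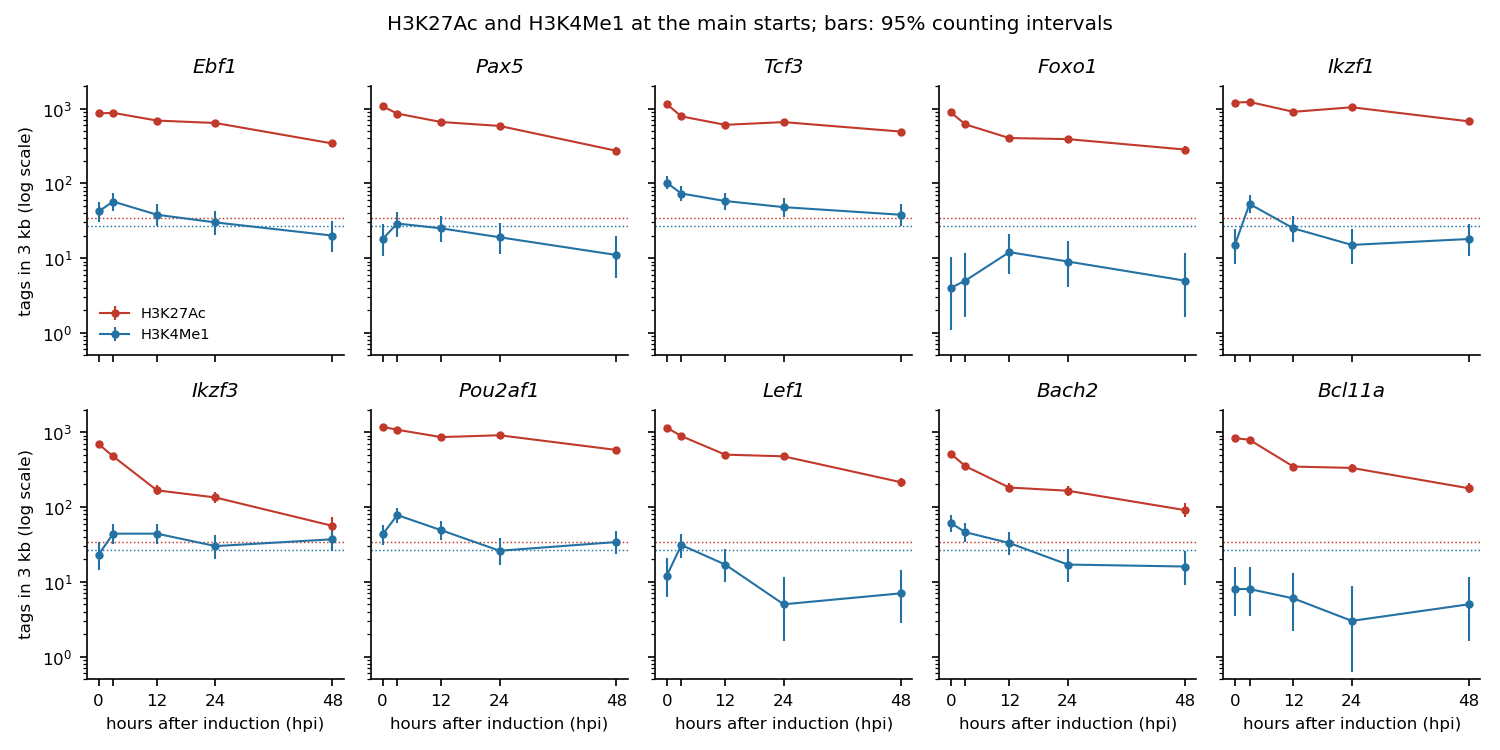
Tags in 3 kb around the main start of each gene against hours after induction, on a log axis, for H3K27Ac (red) and H3K4Me1 (blue), 1 library per point. Bars are 95% counting intervals and dotted lines the limits of 34 and 27 tags above which a start counts as marked. All 10 H3K27Ac curves end below their 0 hpi point, with Ikzf3 falling from 696 to 56 tags and Ikzf1 from 1198 to 674, while H3K4Me1 is near or below its limit at most starts.

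At 0 hpi the main starts had, in descending order, 1198 (Ikzf1), 1180 (Pou2af1), 1153 (Lef1), 1148 (Tcf3), 1069 (Pax5), 889 (Foxo1), 859 (Ebf1), 834 (Bcl11a), 696 (Ikzf3) and 515 (Bach2) H3K27Ac tags in 3 kb. The counting intervals of neighbours overlapped from Ikzf1 to Pax5 and from Foxo1 to Bcl11a, so that only the steps from Pax5 to Foxo1, to Ikzf3 and to Bach2 lay outside counting error. The order was different at 48 hpi. Ikzf1 (674 tags), Pou2af1 (579) and Tcf3 (492) then stood highest, and Bach2 (91) and Ikzf3 (56) lowest.

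Among the factors that act first in the lineage, the log2 change at 3 hpi was −0.55 at Tcf3, −0.54 at Foxo1 and 0.03 at Ebf1, or −0.83, −0.82 and −0.26 under background-bin scaling. Bach2 and Ikzf3 had −0.55 each, or −0.84 and −0.83, so a change of this size was not confined to the upstream factors. The Tcf3 main start (chr10, minus strand, gene at chr10:79872259-79896392) had 1148, 785, 605, 658 and 492 H3K27Ac tags at 0, 3, 12, 24 and 48 hpi, a log2 change of −1.22 (−1.38 to −1.07), which was −0.55 in the 1 kb window. Of the difference between 0 and 48 hpi, 55.3% was present at 3 hpi and 82.8% at 12 hpi. Its second start, +11.8 kb into the gene, was weakly marked and had 66, 73, 47, 55 and 57 tags. The Foxo1 start (gene at chr3:52072259-52154031, plus strand) had 889, 613, 403, 390 and 283 tags, with 45.5% of the difference present at 3 hpi and 80.2% at 12 hpi. Its log2 change was −1.65 (−1.85 to −1.46). The intervals of 12 and 24 hpi overlapped. The log2 change from 24 to 48 hpi was −0.46, but −0.07 under common-bin scaling.

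The Ebf1 start (gene at chr11:44430819-44821593, plus strand) had 859, 875, 690, 640 and 341 tags. The count at 3 hpi was inside the interval of 0 hpi (803 to 918), and 32.6% of the difference was present at 12 hpi and 42.3% at 24 hpi, or 51.6% and −16.0% at 24 hpi under common-bin and background-bin scaling, where a negative share means a level above that of 0 hpi. The log2 change over all 48 h was −1.33 (−1.52 to −1.15). Pax5 (gene at chr4:44544017-44724318, minus strand), which Ebf1 is known to activate, had 1069, 856, 660, 585 and 272 tags. Its log2 change of −1.97 (−2.17 to −1.78) was larger than that of Ebf1, without overlap of the intervals, and 51.3% of it, as tags, was present at 12 hpi.

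The 250 bases before the main starts of Ebf1, Pax5, Foxo1 and Lef1 are shown because these promoters had lower H3K27Ac at 48 hpi and differed in how early it changed. They are given 5′ to 3′ on the strand of the gene (mm9), and capitals mark matches, on either strand, to the 6 motifs searched: EBF CCCNNGGGA, E-box CAGGTG, C/EBP TTGCNNAA, Ets GGAAGT, Ikaros TGGGAA and Runx TGTGGT.
Ebf1 promoter, chr11:44430569-44430818, plus strand: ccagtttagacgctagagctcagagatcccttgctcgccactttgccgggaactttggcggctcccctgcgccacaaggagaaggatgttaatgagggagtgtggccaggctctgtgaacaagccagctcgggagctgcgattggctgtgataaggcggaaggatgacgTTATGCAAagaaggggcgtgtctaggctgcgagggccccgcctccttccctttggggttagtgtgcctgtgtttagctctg
Pax5 promoter, chr4:44724319-44724568, minus strand: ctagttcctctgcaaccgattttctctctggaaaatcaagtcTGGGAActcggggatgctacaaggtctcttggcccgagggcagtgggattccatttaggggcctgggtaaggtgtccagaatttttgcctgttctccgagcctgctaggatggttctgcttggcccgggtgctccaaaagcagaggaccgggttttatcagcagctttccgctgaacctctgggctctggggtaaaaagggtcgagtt
Foxo1 promoter, chr3:52072009-52072258, plus strand: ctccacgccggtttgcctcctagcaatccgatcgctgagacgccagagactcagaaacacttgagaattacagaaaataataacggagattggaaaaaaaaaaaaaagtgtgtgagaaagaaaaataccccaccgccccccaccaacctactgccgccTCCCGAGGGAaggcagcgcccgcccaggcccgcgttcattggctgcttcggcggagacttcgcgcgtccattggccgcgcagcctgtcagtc
Lef1 promoter, chr3:130813139-130813388, plus strand: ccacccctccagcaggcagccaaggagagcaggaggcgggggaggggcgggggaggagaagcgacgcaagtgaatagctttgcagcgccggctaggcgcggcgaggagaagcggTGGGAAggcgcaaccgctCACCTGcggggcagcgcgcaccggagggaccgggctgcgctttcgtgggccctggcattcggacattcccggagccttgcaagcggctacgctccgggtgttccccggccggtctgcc

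The capitals are a C/EBP match in Ebf1, an Ikaros match in Pax5, 2 overlapping EBF matches (1 per strand) in Foxo1, and an Ikaros and an E-box match in Lef1. Over the 10 main promoters, the C/EBP letters were found in 2 (Ebf1 and Pou2af1), the Ikaros letters in 3 (Ikzf1, Lef1 and Pax5), and the EBF, E-box and Ets letters in 1 each (Foxo1, Lef1 and Tcf3). Runx letters were in 0 of the 10. Of all 22342 main promoters of the same length, 9.01% held the C/EBP, 20.8% the Ikaros, 6.31% the EBF, 16.8% the E-box, 19.9% the Ets and 12.7% the Runx letters. A match is a stretch of letters and no evidence of binding.

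The Ikaros family held both ends of the range. Ikzf3 (Aiolos, gene at chr11:98326216-98407345, minus strand), which rises as pre-B cells mature, had 696, 475, 167, 134 and 56 H3K27Ac tags at its start. It kept 8.05% of its tags at 48 hpi, and its log2 change of −3.64 (−4.06 to −3.24) lay below the intervals of the other 9 genes. Ikzf1 (Ikaros, gene at chr11:11585006-11672929, plus strand), which is used across blood lineages, had 1198, 1225, 903, 1039 and 674 tags at its main start, a log2 change of −0.83 (−0.97 to −0.69). It kept 56.3% of its tags and stayed short of 2-fold, alone among the 10. From 12 to 48 hpi Ikzf3 was again lowest (−1.58), but the smallest log2 change was at Tcf3 (−0.30) and not at Ikzf1 (−0.42).

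The 3 starts of Ikzf1 moved differently. The start at −5.33 kb, used by 9 annotated transcripts, had 1183, 862, 799, 783 and 447 H3K27Ac tags, a log2 change of −1.40 (−1.56 to −1.25), which lies outside the interval of the main start. The start at +9.89 kb was weakly marked and had 80, 97, 71, 89 and 117 tags, a log2 change of 0.55 (0.13 to 0.98). Under the start at −5.33 kb the mark was thus lower by more than 2-fold and at the main start it was not, although both had nearly the same level at 0 hpi.

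The coactivator Pou2af1 (gene at chr9:51021795-51048184, plus strand), which binds with Oct factors at B cell promoters, had 1180, 1078, 860, 910 and 579 tags and a log2 change of −1.03 (−1.17 to −0.88). Its interval spans the 2-fold limit. Lef1 (gene at chr3:130813389-130927274, plus strand) had 1153, 887, 501, 476 and 215 tags, a log2 change of −2.42 (−2.64 to −2.21). Both therefore began at indistinguishable levels and ended well apart.

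Both repressors had much lower H3K27Ac. Bach2 (gene at chr4:32325779-32673083, plus strand) had 515, 351, 182, 165 and 91 tags at its main start, with a log2 change of −2.50 (−2.84 to −2.18). Its start at +179 kb had 13, 47, 19, 9 and 11 tags and was marked at 3 hpi alone (log2 change 1.85, 0.94 to 2.86). Its start at +263 kb had 15, 18, 21, 5 and 9 tags and was unmarked throughout. Bcl11a (gene at chr11:23978056-24074123, plus strand) had 834, 791, 347, 333 and 178 tags, a log2 change of −2.23 (−2.47 to −1.99). Its count at 3 hpi was within the interval of 0 hpi (778 to 893), as at Ebf1, and the log2 change of −0.08 was −0.36 under background-bin scaling. At 12 hpi, 74.2% of its difference was present against 32.6% at Ebf1.

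**Figure D2:**
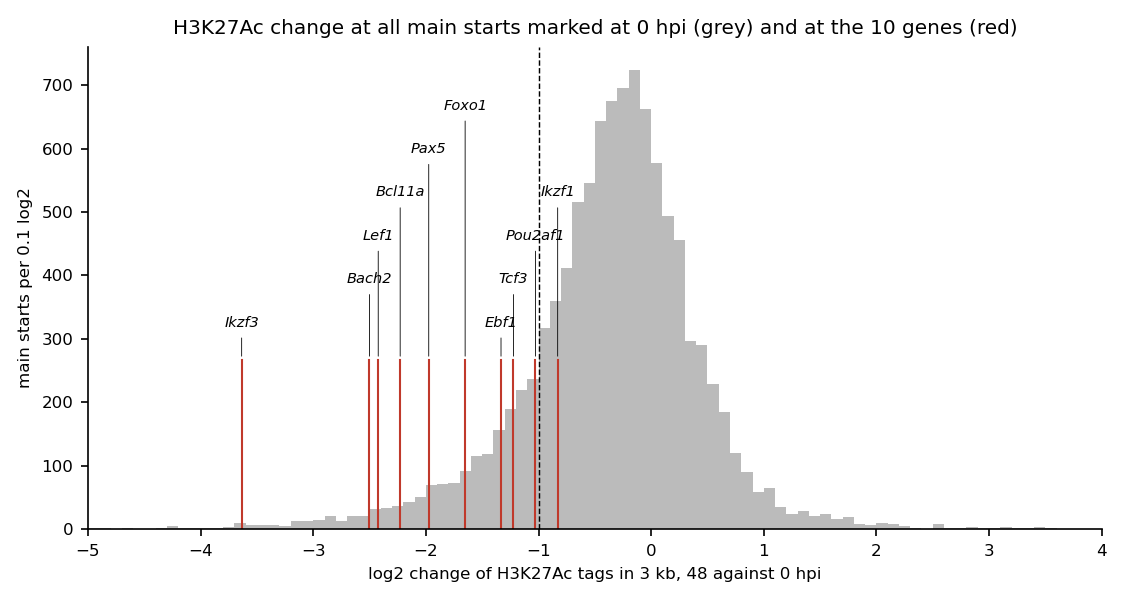
Distribution of the log2 change of H3K27Ac between 0 and 48 hpi over all 10343 main starts marked at 0 hpi (grey, starts per 0.1 log2), with the 10 genes as red lines and the 2-fold limit as a dashed line. The 10 genes lie between −3.64 (Ikzf3) and −0.83 (Ikzf1), all below the median of −0.30.

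No gene of the 10 was lower at 3 hpi, when 2.82% of all marked starts were, but the median log2 change was −0.35 against 0.13. At 12 hpi 5 were lower (Foxo1, Ikzf3, Lef1, Bach2 and Bcl11a), against 4.60%. The median log2 change against 0 hpi was −1.03 at both 12 and 24 hpi, but −1.17 and −0.47 under background-bin scaling, where the change from 12 to 24 hpi was above 0 at all 10 genes. From 24 to 48 hpi the log2 change ran from −0.42 (Tcf3) to −1.26 (Ikzf3) and was below that from 12 to 24 hpi at all 10 genes, or at 9 under common-bin scaling, where Foxo1 had −0.18 and then −0.07 and Tcf3 −0.02 and then −0.03. The later step covers 24 h and the earlier one 12 h, so an even decline would also make the later step larger. The 24 hpi library also had 78.1% of its tags in enriched bins, against 66.5% at 12 hpi and 69.5% at 48 hpi. The part of this in the steps was not tested. Over all main starts marked at 0 hpi, the median log2 change against 0 hpi was −0.01 at 24 hpi and −0.30 at 48 hpi.

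H3K4Me1 marked 4 of the 10 main starts at 0 hpi, against 44.8% of all main starts and 87.3% of those marked by H3K27Ac at 0 hpi, as all 10 were. Of those 4, 3 were lower at 48 hpi, against 12.9% of the 10004 main starts so marked. Under background-bin scaling 1 was, against 3.42%. Tcf3 had 102, 73, 58, 48 and 38 H3K4Me1 tags, Bach2 61, 46, 33, 17 and 16, and Ebf1 42, 57, 38, 30 and 20. The Ebf1 log2 change of −1.07 (−1.92 to −0.27) has a wide interval, as it rests on few tags. Pou2af1 had 43, 78, 49, 26 and 34 tags, a log2 change of −0.34 (−1.03 to 0.34). At 3 hpi Ikzf1 (15 and 53 tags at 0 and 3 hpi), Pax5 (18 and 29) and Lef1 (12 and 31) passed the limit and were back below it at 12 hpi with 25, 25 and 17 tags. Ikzf3 passed it at 3 hpi and was at 37 tags at 48 hpi against 23 at 0 hpi (log2 change 0.69, with an interval that includes 0), so that the start that lost most H3K27Ac had no fewer H3K4Me1 tags.

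H3K27Me3 was not found at the starts of any of the 10 genes. Their main starts had 0 to 14 tags at every time, below the limit of 34 and below the genome average of 18.4. Only Ikzf1 (6 and 10 tags at 0 and 48 hpi) and Ikzf3 (6 and 14) reached 10 tags at either time. Ikzf3 was counted as higher, 1 of these 2 genes, against 6.06% of all main starts tested, but its interval of −0.25 to 2.89 includes no change. At this depth an increase of a few tags per start could not have been detected.

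Around the genes, H3K27Ac was dense. Of the 820 windows, 381 (46.5%) were marked by H3K27Ac at 0 hpi, against 6.32% of the genome, and 320 (39.0%) at 48 hpi against 9.27%. The tags summed over all windows were 94276, 75185, 61674, 57267 and 46079, a log2 change of −1.03 (−1.05 to −1.02), and of −0.42 (−0.44 to −0.40) between 12 and 48 hpi. Of the 381 marked windows, 200 (52.5%) were lower at 48 hpi against 34.2% of all marked windows of the genome. The share lower grew through 16.5% at 3 hpi, 34.1% at 12 hpi and 48.0% at 24 hpi, against 19.7%, 24.4% and 29.8%, so that it was below the genome's share at 3 hpi and above it from 12 hpi on. Under background-bin scaling it was 38.8% at 12 hpi and 31.5% at 24 hpi, against 27.9% and 19.3%. Windows were chosen by their 0 hpi count, which by itself favours lower later counts in the members and the genome alike. Between 12 and 48 hpi, 79 of 358 marked windows (22.1%) were lower, against 11.8%, or 46 of 393 (11.7%) against 6.59% under common-bin scaling.

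The loci differed. At Ikzf3, 15 of 19 marked windows (78.9%) were lower and its summed tags had a log2 change of −1.82 (−1.89 to −1.75). The shares were 65.8% at Ebf1 (75 of 114 windows), 65.6% at Foxo1 (21 of 32), 53.8% at Pax5 (14 of 26), 52.4% at Lef1 (11 of 21) and 48.9% at Bach2 (22 of 45). They were lowest at Bcl11a (36.8%, 14 of 38), Tcf3 (36.4%, 8 of 22), Ikzf1 (32.0%, 16 of 50) and Pou2af1 (28.6%, 4 of 14), near or below the genome's 34.2%. Between 12 and 48 hpi the order was another one. Of the windows marked at 12 hpi, 56.3% were lower at Ikzf3 (9 of 16) and 50.0% at Bach2 (25 of 50), but 3 of 15 at Lef1, 17.6% at Ikzf1 (9 of 51), 17.2% at Ebf1 (16 of 93) and 16.7% at Pax5 (6 of 36). Tcf3 (15.8%, 3 of 19), Pou2af1 (13.3%, 2 of 15), Bcl11a (11.4%, 4 of 35) and Foxo1 (7.14%, 2 of 28) lay near or below the genome's 11.8%. At Foxo1, 13 of the 32 windows marked at 0 hpi were lower at 12 hpi and 21 at 24 hpi. The log2 changes of the summed tags from 12 to 48 hpi ran from −0.16 at Pou2af1 to −0.81 at Ikzf3. Under common-bin scaling they were 0.09 at Pou2af1, 0.06 at Foxo1, −0.01 at Bcl11a and −0.55 at Ikzf3, and the shares of windows lower at Ikzf3 and Bach2 were 44.4% and 22.6%, against 6.59% of the genome's marked windows.

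Upstream of the genes 48 of 59 marked windows were lower and downstream 33 of 51, whereas 119 of 271 windows over gene bodies were. The genome's share was 34.2%. From 12 hpi the counts were 15 of 43, 18 of 47 and 46 of 268, against 11.8%. The 50 kb on each side also hold starts of other genes, as at Tcf3 and Ikzf3. A window there, also in the shares by locus, need not belong to the listed gene. Neighbouring windows share the same enriched stretch and are not separate observations.

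Distal windows, those with no protein-coding start within 1500 bp, can hold enhancers, but whether a given window does was not tested. Negative distances from the main start are upstream. Downstream of Ebf1, the window at +409 kb (chr11:44838001-44841000) had 1070, 475, 516, 424 and 183 H3K27Ac tags. The count at 3 hpi was less than 50% of that at 0 hpi, whereas the log2 change at the Ebf1 start was then 0.03, or −0.26 under background-bin scaling. This window was picked for its 0 hpi count, which by itself favours a later drop. Of all 114 Ebf1 windows marked at 0 hpi, 9 (7.89%) were lower at 3 hpi, against 19.7% of the genome's. The window at +442 kb had the largest fall at this gene, with 420, 229, 78, 35 and 22 tags, and there H3K4Me1 went with it (147, 170, 66, 43 and 15 tags).

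Downstream of Foxo1, windows at +126 and +129 kb (chr3:52197001-52203000) had 1182, 330, 292, 296 and 275 tags, and 788, 187, 55, 45 and 40 tags. Both had lost most of their H3K27Ac at 3 hpi, when the Foxo1 start had 613 of 889 tags. They were picked by their 0 hpi count or their fall. Of all 32 Foxo1 windows marked at 0 hpi, 4 (12.5%) were lower at 3 hpi, against 19.7% of the genome's. The 2 adjacent windows parted afterwards, since the one at +126 kb held its level and kept H3K4Me1 (75 and 91 tags at 0 and 48 hpi) and the other sank to near its limit with H3K4Me1 at 355 and 111 tags.

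Upstream of Tcf3, the window at −10.1 kb (chr10:79905001-79908000) was both the strongest distal window and the one with the largest fall, with 620, 214, 152, 124 and 68 tags. Inside Ikzf3, an intronic pair at +50.6 and +53.6 kb had 580, 267, 144, 96 and 41, and 707, 361, 339, 288 and 142 tags. Upstream of Bach2, the window at −5.28 kb had 408, 188, 29, 14 and 16 tags and was unmarked from 12 hpi on, a log2 change of −4.67 (−5.49 to −3.96). The window at −17.3 kb, the strongest of that locus, had 1016, 321, 493, 351 and 194 tags, so that it was lower at 3 hpi than at 12 hpi.

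Upstream of Ikzf1, the window at −29.8 kb had 1084, 553, 257, 148 and 68 tags and its neighbour at −32.8 kb had 1509, 874, 738, 829 and 515, the highest distal count of the 10 loci. Upstream of Pou2af1, the window at −47.3 kb had 771, 358, 285, 202 and 155 tags. Within Pax5, the first window past the promoter at +4.82 kb had 1259, 824, 924, 961 and 491 tags and the next at +7.82 kb, which overlaps an exon, had 912, 646, 368, 198 and 96. The window at +7.82 kb was not marked by H3K4Me1 at any time (23, 22, 25, 18 and 18 tags). Lef1 and Bcl11a had weaker distal windows. The largest falls there were from 43 to 3 tags at −5.89 kb of Lef1 and from 119 to 15 tags at +125 kb of Bcl11a, near the starts of Gm12065 and Gm12066, where 17 tags were left at 3 hpi.

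**Figure D3:**
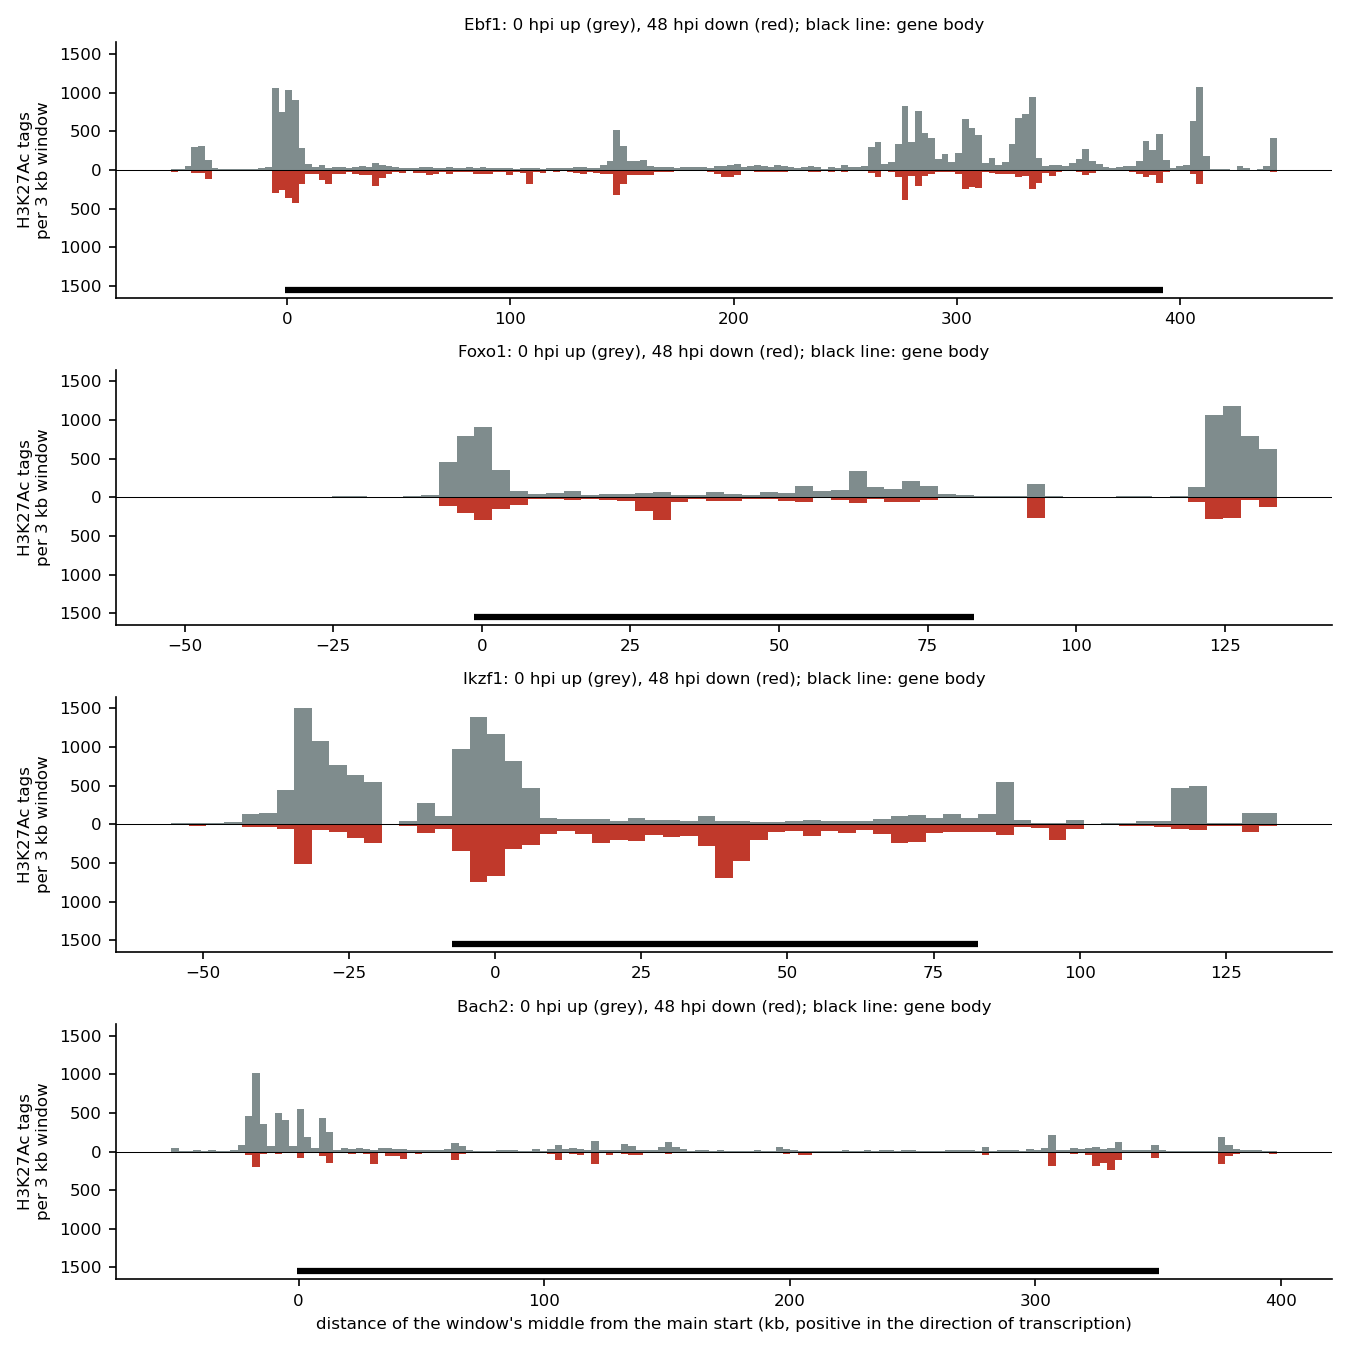
H3K27Ac tags per 3 kb window over 4 of the loci against distance from the main start in kb, at 0 hpi (grey, upward) and 48 hpi (red, downward), 1 library each. The black line is the gene body. Tall grey peaks upstream and downstream of the genes have lower red counterparts, such as 1509 and 515 tags at −32.8 kb of Ikzf1. At Ikzf1 a red peak of 690 tags stands at +39.2 kb, where 0 hpi had 50.

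Some windows of the same loci went the other way. Of the 320 windows marked at 48 hpi, 55 (17.2%) were higher than at 0 hpi, against 46.4% of such windows in the genome, and 22 (6.88%) were higher than at 12 hpi, against 26.0%. Common-bin scaling gave 98 windows higher than at 0 hpi, against 56.4% in the genome. All 55 lay more than 1500 bp from any protein-coding start, as did 274 of the 320 windows marked at 48 hpi. Gene bodies held 49 of the 55, and 237 of the 320. Ikzf1 held 17 of the 55, Ebf1 and Bach2 8 each, Pou2af1 7, Pax5 and Bcl11a 5 each, Foxo1 3 and Lef1 2. Tcf3 and Ikzf3 had none.

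Ikzf1 was divided by position. In its gene body 29 of 30 windows were marked at 0 hpi, of which 2 were lower at 48 hpi, and 16 of the 30 windows marked at 48 hpi were higher. Over the genome 34.2% were lower and 46.4% higher, so the share higher over the body was near the genome's. Upstream, 10 of 11 marked windows were lower and none was higher. Against 12 hpi these gains did not reach 2-fold, since none of the 50 Ikzf1 windows marked at 48 hpi was higher than at 12 hpi, against 26.0% of the genome's. Of the windows marked at 12 hpi, 0 of 30 over the body and 3 of 10 upstream were lower at 48 hpi, against 11.8% of the genome's. The intronic window at +39.2 kb (chr11:11628001-11631000) had 50, 138, 498, 752 and 690 tags, a log2 change of 3.79 (3.37 to 4.23), with H3K4Me1 at 148, 150, 299, 312 and 290. It stood above the main start of its own gene at 48 hpi (674 tags), though the counting intervals overlap.

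In Bcl11a, a window at +65.3 kb that overlaps an exon had 61, 94, 264, 474 and 308 tags, highest at 24 hpi. An intronic Foxo1 window at +30.2 kb had 70, 175, 157, 189 and 297, and an intronic Ebf1 window at +109 kb had 26, 31, 89, 145 and 186 with H3K4Me1 at 36, 39, 72, 109 and 132. Upstream of Pou2af1, the window at −32.3 kb had 20, 41, 106, 151 and 168 tags. Intronic windows of Bach2 (+30.7 kb), Pax5 (+67.8 kb) and Lef1 (+36.1 kb) went from 23 to 158, 18 to 127 and 35 to 97 tags. At Tcf3 the window with the largest rise went from 23 to 41 tags, short of 2-fold, and at Ikzf3 none qualified. Increases occurred in 8 loci whose starts had less H3K27Ac.

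**Figure D4:**
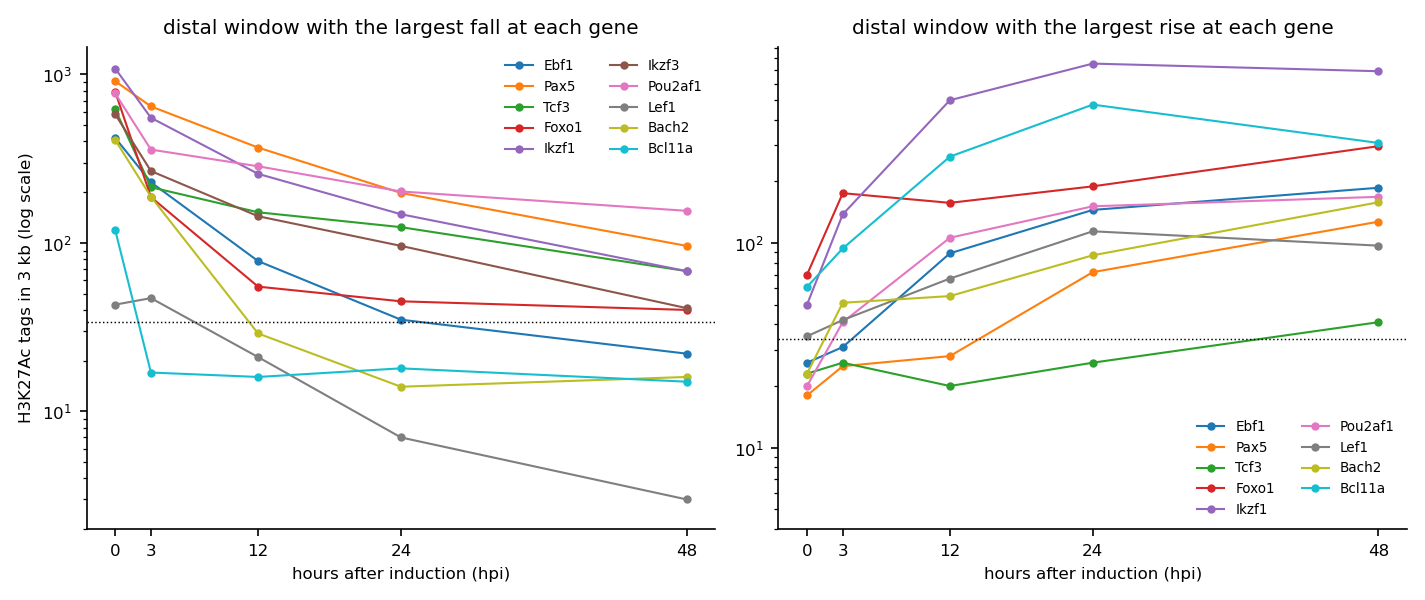
H3K27Ac tags in 3 kb (log axis) against hours after induction for the distal window with the largest fall (left) and the largest rise (right) at each gene, 1 library per point. The dotted line is the limit of 34 tags. The windows were picked by their 0 and 48 hpi counts. On the left the lines of Foxo1 and Bcl11a drop most by 3 hpi, to 187 and 17 tags, and on the right the line of Ikzf1 reaches 752 tags at 24 hpi.

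The 300 bases with most H3K27Ac tags within a window are shown for 2 windows with large falls and for the Ikzf1 windows with the largest fall and rise, since these carry the contrast between loss and gain. They are on the plus strand of mm9, with matches to the same 6 motifs in capitals.
Ebf1 at +442 kb, lost, chr11:44873131-44873430: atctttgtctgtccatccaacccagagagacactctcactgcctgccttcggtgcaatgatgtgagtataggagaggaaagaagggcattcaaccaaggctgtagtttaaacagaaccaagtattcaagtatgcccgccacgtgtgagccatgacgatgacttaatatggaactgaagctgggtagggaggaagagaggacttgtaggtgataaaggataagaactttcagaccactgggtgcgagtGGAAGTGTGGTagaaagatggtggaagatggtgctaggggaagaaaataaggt
Foxo1 at +129 kb, lost, chr3:52200771-52201070: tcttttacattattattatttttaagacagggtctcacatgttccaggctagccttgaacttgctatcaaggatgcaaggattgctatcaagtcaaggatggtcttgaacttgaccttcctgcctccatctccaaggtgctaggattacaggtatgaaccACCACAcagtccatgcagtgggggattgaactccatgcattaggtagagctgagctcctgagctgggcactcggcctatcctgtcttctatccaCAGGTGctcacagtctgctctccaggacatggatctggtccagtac
Ikzf1 at −30.9 kb, lost, chr11:11559301-11559600: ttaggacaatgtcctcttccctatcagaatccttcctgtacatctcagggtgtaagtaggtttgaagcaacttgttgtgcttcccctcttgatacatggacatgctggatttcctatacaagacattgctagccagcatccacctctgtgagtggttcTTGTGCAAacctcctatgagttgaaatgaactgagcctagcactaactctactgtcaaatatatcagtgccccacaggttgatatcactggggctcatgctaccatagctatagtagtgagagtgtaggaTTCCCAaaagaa
Ikzf1 at +40.5 kb, gained, chr11:11630671-11630970: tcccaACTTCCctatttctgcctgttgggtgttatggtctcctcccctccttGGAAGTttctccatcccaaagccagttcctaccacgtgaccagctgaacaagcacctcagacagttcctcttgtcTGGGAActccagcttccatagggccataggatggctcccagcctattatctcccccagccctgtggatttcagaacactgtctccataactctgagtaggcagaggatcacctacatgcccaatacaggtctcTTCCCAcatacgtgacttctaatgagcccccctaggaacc

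These pieces had 102, 27, 15, 6 and 5 H3K27Ac tags (Ebf1), 139, 15, 5, 2 and 4 tags (Foxo1), 194, 91, 58, 26 and 9 tags (Ikzf1, lost) and 7, 22, 138, 153 and 146 tags (Ikzf1, gained). The capitals are an Ets and a Runx match that share a base in the Ebf1 piece, a Runx and an E-box match in the Foxo1 piece, and a C/EBP and an Ikaros match in the lost Ikzf1 piece. The gained Ikzf1 piece holds 2 Ets and 2 Ikaros matches. Over the 10 windows with the largest falls, the C/EBP letters were in 2 pieces and the Ikaros letters in 1. The shares were 11.8% and 25.8% over the densest pieces of all 36158 distal windows marked at 0 hpi, falling or not. Over the 9 windows with the largest rises the C/EBP and Ikaros letters were in 1 and 6. Over all 58772 distal windows marked at 48 hpi, rising or not, the shares were 11.2% and 26.6%. The EBF letters were in none of these 19 pieces, against 5.62% and 5.45%. The E-box letters were in 2 and 2 pieces (20.1% and 19.8%), the Ets letters in 3 and 2 (22.6% and 23.3%) and the Runx letters in 3 and 2 (23.9% and 24.6%).

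H3K4Me1 marked 530 of the 820 windows (64.6%) at 0 hpi and 398 (48.5%) at 48 hpi, against 10.3% and 12.2% of the genome, and 205 of the 530 (38.7%) were lower at 48 hpi against 21.5%. Of the 200 windows whose H3K27Ac was lower, 186 had been marked by H3K4Me1 at 0 hpi and 146 were at 48 hpi, against 77.6% of such windows genome-wide. H3K27Ac itself still marked 106 of the 200. Genome shares were not computed for the 186 and the 106, so neither is read as particular to these loci. The median log2 change of H3K4Me1 in the 200 windows was 0.06, −0.53, −0.86 and −1.07 at 3, 12, 24 and 48 hpi, and −0.85 at 48 hpi over the 17971 such windows of the genome. Under background-bin scaling the median over the loci was −0.51 at 48 hpi, and H3K4Me1 then marked 170 of 207 windows with lower H3K27Ac. A genome share under that scaling is not given here, so the 170 cannot be set against the 77.6%. Since the windows were picked for their loss of H3K27Ac, the sizes of the changes of the 2 marks in them cannot be compared. Of the 79 windows lower than at 12 hpi, 57 were marked by H3K4Me1 at 48 hpi, against 85.3% genome-wide.

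The size of the H3K4Me1 change depended on the scaling of the libraries, which was also set by bins that held background at all times or by bins enriched throughout. Summed over the 820 windows its log2 change was −0.54 (−0.56 to −0.52), but 0.01 when libraries were scaled by background bins, and only 101 of the 530 windows were then lower, against 8.87% of the genome. By locus the log2 change ran from −1.27 at Ikzf3 to 0.11 (0.06 to 0.16) at Ikzf1. Ikzf1 was above 0 under each of the 3 scalings tried (0.10, 0.17 and 0.66), whereas Pou2af1, Lef1 and Bcl11a turned from −0.43, −0.53 and −0.49 to 0.12, 0.02 and 0.06 under background-bin scaling. The H3K27Ac sums stayed below 0 at all 10 loci under the same scalings.

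The windows that gained H3K27Ac mostly held H3K4Me1 beforehand. Of the 55, 49 (89.1%) were marked by H3K4Me1 at 0 hpi, against 40.8% of windows with higher H3K27Ac in the genome. Of all 820 windows of these loci, 64.6% were so marked. H3K27Ac already marked 28 of the 55 at 0 hpi, for which a genome share is not given here. The median log2 change of H3K4Me1 in the 55 was 0.49, against 1.54 genome-wide. Of the 22 windows higher than at 12 hpi, 16 were marked by H3K4Me1 at 12 hpi, against 49.4%.

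**Figure D5:**
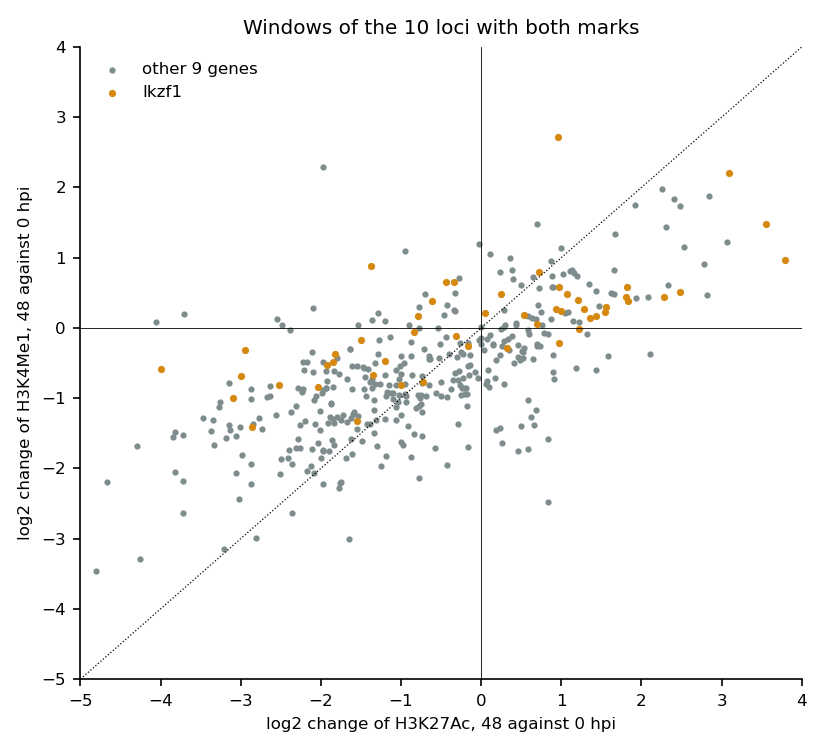
Log2 change between 0 and 48 hpi of H3K4Me1 against that of H3K27Ac for the 415 windows of the 10 loci that were marked by each of these 2 marks at 0 or 48 hpi, with the 51 windows of Ikzf1 in orange. The dotted line is equal change. Windows that lost H3K27Ac mostly have less H3K4Me1 too, and many Ikzf1 windows lie to the right of 0, with gains of both marks.

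Over the 10 loci together H3K27Me3 was sparser than in the genome, though not at each locus, and no marked window changed 2-fold. The tags summed over the 10 loci had a log2 change of −0.16 (−0.20 to −0.12), and those of Tcf3 one of 0.30 (0.18 to 0.43). Under background-bin and common-bin scaling the change over the 10 loci was −0.01 and −0.33, that of Foxo1 was 0.15 and −0.17, that of Ikzf3 0.07 and −0.25, and that of Tcf3 0.46 and 0.14. Of the 820 windows, 59 (7.20%) were marked at 0 hpi against 14.0% of the genome, and 60 (7.32%) at 48 hpi against 15.5%. None of the 60 was higher than at 0 hpi, against 5.33% in the genome, and none of the 59 was lower. Ebf1, Ikzf1 and Pou2af1 had no window marked by H3K27Me3 at any time. The marked windows were at Ikzf3 (14 at 0 hpi and 13 at 48 hpi), Bcl11a (13 and 10), Tcf3 (11 and 15), Bach2 (8 and 7), Pax5 (7 and 6), Foxo1 (5 and 8) and Lef1 (1 and 1). These were 26.2% and 35.7% of the Tcf3 windows and 22.6% and 21.0% of the Ikzf3 windows, above the genome's shares. At Bcl11a they were 19.7% and 15.2%, above the genome's share at 0 hpi. The highest distal counts were 90, 83, 90, 75 and 65 tags at −45.4 kb of Ikzf3, 77, 81, 79, 83 and 99 at −28.1 kb of Tcf3 and 77, 71, 92, 68 and 80 at +370 kb of Bach2. Of the 200 windows that lost H3K27Ac, 1 was marked by H3K27Me3 at 0 hpi and 2 at 48 hpi. The share over the genome's windows that lost H3K27Ac was not computed.

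Genes known as targets of these factors in B cells were lower in H3K27Ac as well. All 14 of a list of 14 (Cd79a, Vpreb1, Rag1 and others), which holds the 8 pre-B markers above, had lower H3K27Ac at their main start, against 16.1% of all main starts, with a median log2 change of −1.94. For H3K4Me1, 0 of 14 were lower and 1 was higher, against 17.8% and 6.58% of all main starts. Between 12 and 48 hpi, 6 of 13 tested had lower H3K27Ac, against 8.31% (Cd79a, Vpreb1, Vpreb2, Igll1, Cd22 and Cd72). Cd79a, a signaling chain of the B cell receptor, had 1232, 821, 681, 601 and 310 H3K27Ac tags and 69 and 55 H3K4Me1 tags at 0 and 48 hpi. Of the surrogate light chain genes, Igll1 had 1519, 1533, 1334, 1081 and 468 tags and Vpreb1 1074, 1084, 734, 628 and 296. Both were level at 3 hpi, as Ebf1 was, whereas Vpreb2 had 1135, 386, 190, 72 and 59. Rag1, a recombinase gene, had 198 tags at 0 hpi and 45 at 3 hpi, and Dntt, which adds N nucleotides, had 577, 499, 133, 106 and 69.

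The proteins that pair with or block E proteins, and other blood cell factors, can be read against the 16.1% of all main starts that were lower and the 11.2% that were higher. Of 6 genes, Id1, an inhibitor of Tcf3, was higher (52, 133, 333, 351 and 123 H3K27Ac tags), and Id3, another inhibitor, was lower (324, 302, 126, 118 and 110). Id2, Tcf12, Lmo2 and Ldb1 stayed within 2-fold. Of 13 other lymphoid and blood factors tested, 8 were lower, among them Myb (765, 1020, 468, 271 and 96 tags) and Runx1 (924, 884, 809, 711 and 245), and Bcl6, a germinal center repressor, was higher (192, 718, 326, 472 and 613). Of 8 myeloid factors tested, Nfe2 was higher (28, 42, 161, 243 and 275) and Cebpb stayed level (632 and 670 tags at 0 and 48 hpi). Cebpa (98 and 41) and Batf3 (22 and 7) were lower, but Batf3 was under the limit of 34 tags at both times. Between 12 and 48 hpi 1 of the 6 (Id1), 3 of the 13 (Irf4, Myb and Runx1) and 1 of the 8 (Batf3) were lower. None of these 3 lists held a higher start. Of all main starts, 8.31% were then lower and 5.80% higher. Of 5 genes used in every cell, none was lower or higher against 0 or 12 hpi, and the median log2 change was −0.40 from 0 hpi and −0.61 from 12 hpi.

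The H3K27Ac courses of single genes had close neighbours elsewhere in the genome. By the distance between the 4 log2 changes against 0 hpi, the main start most like that of Ebf1 was Ezr (0.10 log2 units apart), that most like Pax5 was Hist1h4b (0.17), Tcf3 Polm (0.15), Foxo1 Nmral1 (0.11), Ikzf1 Chst12 (0.06) and Pou2af1 Irf2bp2 (0.07), out of 10342 others. Lef1 was nearest to Trp53i11 (0.28), Bach2 to Dpp4 (0.23) and Bcl11a to Rbm38 (0.30), with Lef1 the second nearest to Bcl11a (0.37). Ikzf3 had no start closer than 0.43 (Gm15409) and next to that Hes1 (0.45).

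Under common-bin scaling, the median log2 change of H3K27Ac over all tested starts moved from −0.21 to 0.20, and that of the 10 genes from −1.81 to −1.40. Under background-bin scaling, the median of all starts moved from −0.34 to 0.21 for H3K4Me1 and from 0.03 to 0.18 for H3K27Me3. With 1 library per point, none of these courses has a replicate check.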

How the data were processed

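C10 libraries for 3 histone marks at 5 times were grouped from their GEO labels, 1 per mark and time. The authors aligned Illumina reads to mm9 with Eland or Bowtie without mismatches and removed non-unique and identical tags. Which aligner and version served each library is not given in the sources used here. The deposited files hold tag positions without strand, not counts. In them up to 5.57% of a library's tags still repeated a position, with at most 205 tags at 1 position.

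Tags were placed at the middle of their interval, 1 per position was kept, and libraries of a mark were thinned at random to equal size. Build and annotation were NCBIM37 (mm9) and GENCODE vM1, and of 264559265 tags 0 lay in stretches without known bases and 3 beyond a chromosome end. Main starts, 3 kb windows and the Poisson limit are as defined above. Starts within 3000 bp were joined. A change from a count of 0 used 3 tags. Tags have exact Poisson and log2 changes exact conditional binomial 95% intervals, for counting error only, and PCR copies at other positions remain.

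The 10 genes, the gene lists and the comparisons were chosen with earlier results of these data known. At each locus, the named windows were the distal ones with most H3K27Ac at 0 hpi, the largest fall and the largest rise (log2 of tags plus 5), and that with most H3K27Me3. Of 16 lymphoid and 12 myeloid factors, 14 and 11 were matched by symbol and the others were not analysed here. A gene of the target and pre-B lists is included in their counts, and its own values are not reported here. Alternatives were tags as deposited, full depth, another draw, background-bin and common-bin scaling, other folds, windows, limits, flanks and starts, and 12 in place of 0 hpi. Counting and intervals were tested on simulated data. Python 3.11.15, numpy 2.4.6 and scipy 1.17.1 were used.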

Additional observations from a re-analysis of the deposited data

How the results depend on the processing

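Each of the 90 values of H3K27Ac at the 10 main starts under the alternatives stayed below 0, but 30 of them lay outside the counting interval of the reported value. Of 73 recomputed counts and medians, 55 stayed within 1.5 times the reported count or within the median limits of the counting intervals. Among the other recomputed values, of single starts, windows and loci, 312 stayed within their limits, 127 moved outside them and 6 reversed. With 12 in place of 0 hpi, 5 genes had lower H3K27Ac in place of 9, the median log2 change was −0.98, and 79 windows were lower and 22 higher in place of 200 and 55. Common-bin scaling gave a median of −1.40 and 98 higher windows, and a 1 kb start window a median of −1.53. With fold limits of 1.5 and 3, higher windows numbered 97 and 28. At 4 times the mean, 207 windows were marked at 0 hpi. For H3K4Me1, 3 genes became 1 under background-bin scaling, 1 at a fold of 3 and 0 with 1 kb windows. For H3K27Me3, 1 gene became 3 under background-bin scaling, 2 at a fold of 1.5, and 0 at a fold of 3, with 10 kb and with 1 kb windows, from counts under 15 tags. Sums over a locus and the changes at 3 hpi and from 12 to 48 hpi were recomputed under the scalings after the data had been seen, and the H3K4Me1 sums reversed under background-bin scaling at Pou2af1 (0.12), Lef1 (0.0234), Bcl11a (0.0612) and over all 10 loci (0.0141), and the H3K27Ac sums from 12 to 48 hpi under common-bin scaling at Foxo1 (0.0634) and Pou2af1 (0.0882). The causes were not tested. No paired analysis was possible because no mark had more than 1 library at a time. Counts under the limit of 34 tags, as for H3K27Me3 at starts, can show only large changes.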
